A study of Mus musculus with 16 samples.

Results

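The 10 genes of the endoplasmic reticulum (ER) stress response and the integrated stress response described here were measured in mouse quadriceps. They were the rows of the deposited count table whose symbol was *Hspa5*, *Xbp1*, *Atf4*, *Ddit3*, *Trib3*, *Chac1*, *Asns*, *Fgf21*, *Gdf15* or *Casp12*, 10 of 41388 genes. The study asked what tamoxifen (TAM), a modulator of the estrogen receptor, does in mice that lack the lipid phosphatase *Mtm1*, the gene of X-linked myotubular myopathy. Whole quadriceps of C57BL/6 mice taken at postnatal day 36 was sequenced in 4 groups of 4 libraries. WT mice were wild type and untreated, WT + TAM mice were wild type with tamoxifen in the chow at 40 mg/kg a day from day 21, *Mtm1* KO mice carried a targeted deletion in *Mtm1* and were untreated, and *Mtm1* KO + TAM mice carried the deletion and received the same drug. The labels write the knockout genotype as mtm1 -/- and give no litter or batch, so that p-values measure the spread between these libraries.

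Misfolded proteins in the ER lumen are sensed by the membrane proteins IRE1, PERK and ATF6. IRE1 splices *Xbp1* mRNA, ATF6 is cut to a transcription factor, and both raise ER chaperones and degradation of misfolded proteins. PERK and its sister kinases, which sense amino acid lack, double-stranded RNA and heme lack, phosphorylate eIF2 alpha, which lowers translation in general and raises that of ATF4, and ATF4 in turn raises *Ddit3* (CHOP), *Trib3*, *Chac1*, *Asns* and the secreted *Fgf21* and *Gdf15*. Counts per gene measure the amount of mRNA, so that they separate neither the spliced form of *Xbp1* nor the translation of *Atf4*.

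The 14 libraries used by the study held 25702605 to 29847222 counts each. A further 2 libraries, labelled WT replicate 1 and KO replicate 12, were left out by the study with no stated reason and were used here only where named. *Mtm1* had 341 to 369 counts in WT, 282 to 459 in WT + TAM, 63 to 76 in *Mtm1* KO and 53 to 97 in *Mtm1* KO + TAM, while the library labelled WT replicate 1 had 74 counts, a knockout level. A count of the whole gene includes reads from exons outside the deletion. The top 10 genes by count made up 23.6 to 27.6% of a library in WT and 16.9 to 18.8% in *Mtm1* KO. Counts were therefore scaled by TMM, and scaling by library size alone moved the median of all log2 fold changes in *Mtm1* KO against WT from 0.02 to 0.33 and in genotype over both treatments to 0.31. All 7 muscle fiber markers were detected in each group, with a summed level of 148000 to 198000 normalized CPM (counts scaled to a common library size) in WT and 87800 to 103000 in *Mtm1* KO. In whole muscle, fewer cells of a type and less RNA per cell cannot be told apart.

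Per kilobase of gene, *Atf4* and *Hspa5* were the most abundant of the 10 genes, and the secreted factors were close to the detection limit. The mean level over 14 libraries was 116 RPKM for *Atf4*, 87.3 RPKM for *Hspa5*, 28.8 RPKM for *Xbp1*, 13.9 RPKM for *Chac1* and 7.13 RPKM for *Ddit3*. It was 2.1 RPKM for *Asns*, 1.78 RPKM for *Casp12* and 0.8 RPKM for *Trib3*. *Gdf15* and *Fgf21* stood at 0.214 and 0.204 RPKM. *Chac1* varied the most among the genes detected in every library, 20.2-fold between its lowest and its highest library.

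At an adjusted p of at most 0.01, few of the 10 genes differed between groups, and their shares have to be read against those of all genes. In *Mtm1* KO against WT, 1 of 9 tested genes (*Casp12*, lower) passed, where 3.6% of all tested genes did, and 2 of 9 passed at 0.05, where 12.8% did. In *Mtm1* KO + TAM against WT + TAM, 0 of 8 passed (6.72% of all genes), and 2 of 8 passed at 0.05 (17%), *Ddit3* and *Chac1*. At an unadjusted p of at most 0.05 there were 3, where 4700 of 14563 genes passed. At 0.01, DESeq2 (13.7% of all genes) and limma on log2 RPKM (11.1 to 11.6%) called *Ddit3* alone, and edgeR's exact test (12.5%) called *Chac1* alone. In genotype over both treatments, a fit of 7 knockout against 7 wild type libraries with treatment as a covariate, 0 of 9 passed (20.2% of all genes), and 5 of 9 passed at 0.05 (33.8%). The same count of 5 had an unadjusted p of at most 0.05, where 6809 of 15556 genes did. DESeq2 called 5 at 0.01 (25.8% of all genes) and limma 3 (33.1 to 33.3%). In tamoxifen over both genotypes, 1 of 9 passed (*Xbp1*, higher), where 0.476% of all genes did, and the same gene alone passed at 0.05, where 1.72% did. In WT + TAM against WT, 0 of 8 passed (0.131% of all genes), and *Xbp1* alone passed at 0.05 (0.55%), while 4 had an unadjusted p of at most 0.05, where 1549 of 14544 genes did. DESeq2 (1.47% of all genes) and the exact test (1.22%) each called 2 at 0.01, *Xbp1* and *Casp12*. In *Mtm1* KO + TAM against *Mtm1* KO and in the interaction of genotype and tamoxifen, 0 of 9 passed at either threshold, as did 0% of all genes. Without adjustment, 1137 of 15062 genes in the former and 665 of 15556 in the latter had a p of at most 0.05 in edgeR, among them 2 and 1 of the 10 genes, and DESeq2 and limma called 0 of the 10 at 0.01 in both. Among the 14 libraries *Gdf15* reached 10 counts in knockout libraries only and so passed the count filter through the group where it is high. The counts at 0.05 in *Mtm1* KO against WT and in genotype include it, as do the unadjusted count and those of DESeq2 and limma in genotype. The median log2 fold change of the tested genes was 0.21 in *Mtm1* KO against WT (0.02 over all genes), -0.05 in *Mtm1* KO + TAM against WT + TAM (-0.01), 0.35 in *Mtm1* KO + TAM against *Mtm1* KO (-0.0095), 0.36 in WT + TAM against WT (-0.0036), 0.29 for genotype (0.00177), 0.36 for tamoxifen (0.00235) and -0.03 for the interaction (0.0093). The comparisons share libraries and are not independent of each other.

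**Figure D1:**
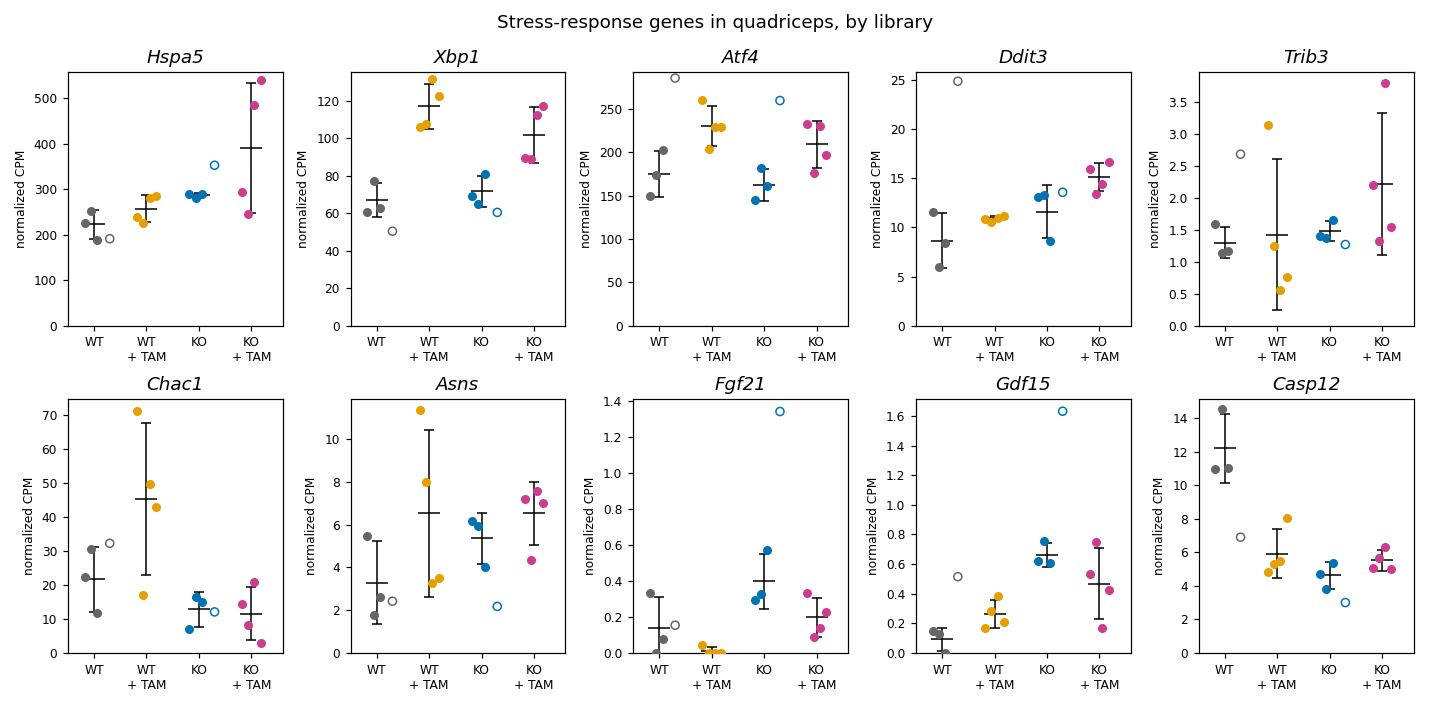
Normalized CPM (y axis, from 0) of the 10 genes in each library, by group (x axis). Filled points are the 14 libraries of the main set, open points are WT 1 and KO 12 as labelled, and bars are the mean ± SD of the filled points. *Xbp1* is higher in all 8 tamoxifen libraries than in the 6 untreated ones, and *Casp12* is higher in the 3 WT libraries than in the other 11.

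*Hspa5* encodes BiP, the main chaperone of the ER lumen and the repressor of its stress sensors. It lies on the plus strand at chr2:34771970-34777547 (GRCm38). Its promoter is shown because it holds the ER stress element, CCAAT and CCACG with 9 bases between them, to which ATF6 and the factor NF-Y bind. Both strands of the window from 250 bases before to 50 bases after the RefSeq start (GRCm38.p6) were searched, and the element was in 0.119% of 32851 such windows. Of the 11 windows of the 10 genes (*Gdf15* has 2), that of *Hspa5* alone held it, beginning 65 bases before the start. The stretch chr2:34771999-34772069, plus strand, has the element in capitals:

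Hspa5: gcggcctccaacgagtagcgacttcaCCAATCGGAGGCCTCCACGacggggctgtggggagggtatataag

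The mRNA of *Hspa5* stood at 227, 253 and 189 normalized CPM in WT, at 239, 226, 282 and 285 in WT + TAM, at 290, 280 and 290 in *Mtm1* KO, and at 295, 246, 486 and 541 in *Mtm1* KO + TAM. All *Mtm1* KO libraries were above all WT libraries, whereas *Mtm1* KO + TAM overlapped WT + TAM, and 2 of its 4 libraries stood far above the other 2. The group means, from lowest to highest, were WT (223 ± 32.1, SD, n = 3), WT + TAM (258 ± 30.1, n = 4), *Mtm1* KO (287 ± 5.72, n = 3) and *Mtm1* KO + TAM (392 ± 143, n = 4), and neighbours in this order overlapped. The log2 fold change of genotype over both treatments was 0.50 (SE 0.15, adjusted p = 0.0177, edgeR), which passed 0.05 and not 0.01. It fell to 0.23 (adjusted p = 0.122, edgeR) without the libraries KO + TAM 15 and 16, a choice made after seeing the values. The untreated comparison gave 0.39 (SE 0.14, adjusted p = 0.0974) and the treated comparison 0.61 (SE 0.23, adjusted p = 0.0897).

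*Xbp1*, the transcription factor downstream of IRE1, was the one gene of the 10 called with tamoxifen at 0.01 in edgeR, and it was higher. DESeq2 called *Atf4* as well. It lies on the plus strand at chr11:5520659-5525893. Its level was 60.6, 77.3 and 62.7 normalized CPM in WT and 69.3, 65.0 and 80.8 in *Mtm1* KO. With tamoxifen it was 106, 108, 131 and 123 in WT + TAM and 89.6, 89.2, 112 and 118 in *Mtm1* KO + TAM. The lowest treated library was above the highest untreated one, in both genotypes. Tamoxifen over both genotypes gave a log2 fold change of 0.66 (SE 0.10, 1.58-fold, adjusted p = 0.00352, edgeR). This call was lost without WT replicate 2 (adjusted p = 0.0152, edgeR), WT replicate 4 (0.0145) or WT + TAM replicate 8 (0.0106), with log2 fold changes of 0.61 to 0.72 over all libraries left out. In the pairwise fits it was 0.80 in wild type (SE 0.13, adjusted p = 0.0289) and 0.50 in the knockout (SE 0.15, adjusted p = 0.361), where the interval ran from 0.18 to 0.82. The interaction was -0.29 (interval -0.71 to 0.12, adjusted p = 1, edgeR), so that a difference between the genotypes was not detectable. The order of the means was WT (66.9 ± 9.09), *Mtm1* KO (71.7 ± 8.2), *Mtm1* KO + TAM (102 ± 14.9) and WT + TAM (117 ± 12.1), and the first pair and the last pair each overlapped. The genotype value was -0.07 (interval -0.28 to 0.14), and it turned to 0.24 with library size scaling.

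*Xbp1* is also expressed by plasma cells. The summed level of 5 plasma and B cell markers was 70 to 123 normalized CPM in WT, 25.9 to 41.7 in WT + TAM, 9.71 to 36.7 in *Mtm1* KO and 6.54 to 12.4 in *Mtm1* KO + TAM, and none of the 5 was at 0 in a group. Of the 2 that passed the filter, *Ighm*, the heavy chain of IgM, fell with tamoxifen by 1.51 on the log2 scale (adjusted p = 0.00311, edgeR), and *Mzb1* was at -0.15 (adjusted p = 0.873). The part of these cells in the *Xbp1* values was not tested. Over 14 libraries and 11863 other genes whose counts averaged 50 or more, the genes whose log2 CPM was most like that of *Xbp1* were *Odc1* (Pearson r = 0.905), *Rnf185* (0.897) and *Oxtr* (0.887). These correlations describe libraries that share treatment, genotype and scaling.

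*Atf4*, the central factor of the integrated stress response, lies on the plus strand at chr15:80255184-80257541 and had the highest level of the 10 genes per kilobase, though not in CPM. It stood at 149, 174 and 202 normalized CPM in WT, 260, 203, 230 and 229 in WT + TAM, 144 to 182 in the 3 *Mtm1* KO libraries and 176 to 232 in the 4 *Mtm1* KO + TAM libraries. WT + TAM lay just above WT without overlap, and the knockout groups overlapped. Tamoxifen over both genotypes gave 0.38 (SE 0.10, adjusted p = 0.0583, edgeR). DESeq2 gave the same 0.38 with an adjusted p of 0.00707, and edgeR gave 0.17 (adjusted p = 0.543, edgeR) with all 16 libraries, in which the library labelled WT replicate 1 held 285 CPM. The value for genotype was -0.13 (interval -0.33 to 0.07, adjusted p = 0.311), and it turned to 0.18 with library size scaling.

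*Ddit3* encodes CHOP, a factor that promotes cell death under lasting ER stress. It lies on the plus strand at chr10:127290774-127296288, where it overlaps exons of *Mars*, the methionyl-tRNA synthetase, and of *Gm4189* on the opposite strand, and of another annotated gene of the same name on its own strand. Of its 50-base stretches, 4.38% were also found in other annotated genes, mostly *Mars*, and the strand setting of the counting is not given in the sources used here. *Mars* fell by 0.49 on the log2 scale in the genotype fit (adjusted p = 4.36e-05, edgeR). *Ddit3* stood at 11.6, 5.97 and 8.43 normalized CPM in WT, 10.84, 10.58, 10.99 and 11.11 in WT + TAM, 13.1, 13.3 and 8.59 in *Mtm1* KO and 15.9, 13.4, 14.5 and 16.7 in *Mtm1* KO + TAM. Among the 14 libraries, all those of *Mtm1* KO + TAM were above all of every other group, at the closest 13.42 against 13.29 in KO replicate 10, and the other 3 groups overlapped one another. KO replicate 12, outside the main set, was at 13.56. *Mtm1* KO + TAM against WT + TAM gave 0.48 (SE 0.12, 1.39-fold, adjusted p = 0.0194, edgeR), genotype over both treatments 0.45 (SE 0.13, adjusted p = 0.015) and the untreated comparison 0.45 (SE 0.26, adjusted p = 0.289). With all 16 libraries the genotype value was 0.21 (adjusted p = 0.526, edgeR) and the untreated comparison turned to -0.05. The library labelled WT replicate 1 had the highest *Ddit3* of all 16, at 24.8 CPM.

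**Figure D2:**
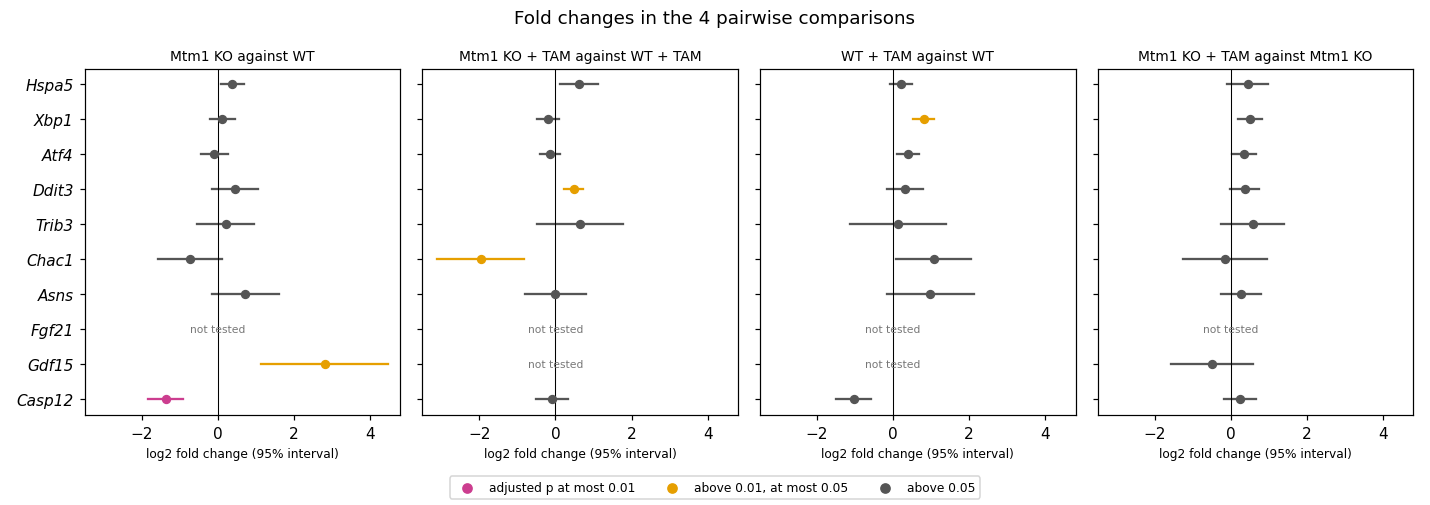
Log2 fold change (x axis) of each gene (y axis) in the 4 pairwise comparisons, with 95% intervals from the edgeR fit. Colour gives the adjusted p, and genes below the count filter are marked as not tested. *Casp12* in *Mtm1* KO against WT, at -1.37, is the one value at an adjusted p of at most 0.01.

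Among the targets of ATF4, *Chac1* was lower in the knockout at a threshold of 0.05, where *Ddit3* was higher. The core of the element that ATF4 binds with C/EBP factors, TGATGNAA, was searched on both strands of the same promoter windows and was in 3.97% of 32851. It was in 4 of the 11 windows of the 10 genes, those of *Chac1*, *Asns*, *Fgf21* and *Trib3*. The last lay 14 bases after the start. A further element, TGACGTGG, was in 0.676% of windows and in 0 of the 11. The stretches of the first 3, each written 5′ to 3′ on the strand of its gene with the core in capitals, show the sequence that these ATF4 targets share. They are chr2:119351023-119351082 (plus strand, core read from the other strand, 193 bases before the start), chr6:7693210-7693258 (minus strand, 23 bases before) and chr7:45615596-45615655 (minus strand, core read from the other strand, 139 bases before). A match describes letters and is not a measured binding site.

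Chac1: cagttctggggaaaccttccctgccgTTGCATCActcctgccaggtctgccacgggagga
Asns: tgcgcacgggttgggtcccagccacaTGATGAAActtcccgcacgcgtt
Fgf21: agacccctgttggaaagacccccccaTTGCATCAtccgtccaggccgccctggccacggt

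*Chac1*, which degrades glutathione, stood at 22.3, 30.7 and 11.8 normalized CPM in WT, 71.1, 17.1, 49.5 and 43.0 in WT + TAM, 7.07, 16.4 and 14.9 in *Mtm1* KO and 14.3, 8.11, 20.9 and 2.92 in *Mtm1* KO + TAM. WT + TAM held the 3 highest libraries, and the knockout libraries lay between 2.92 and 20.9 with or without the drug. *Mtm1* KO + TAM against WT + TAM gave -1.96 (SE 0.52, 0.257-fold, adjusted p = 0.0256, edgeR) and genotype over both treatments -1.45 (SE 0.40, adjusted p = 0.0114). The untreated comparison gave -0.73 (SE 0.37, adjusted p = 0.221) and tamoxifen in wild type 1.07 (SE 0.44, adjusted p = 0.43). The interaction was -1.21 (interval -2.82 to 0.40, adjusted p = 1, edgeR). The genotype value passed 0.01 with DESeq2 (adjusted p = 0.00712) and with all 16 libraries (adjusted p = 0.00691, edgeR). These include the library labelled WT replicate 1, with *Mtm1* at a knockout level. Neither limma nor library size scaling called *Chac1* at 0.01 in this fit. With a library left out its adjusted p ran from 0.00606 to 0.0276 (edgeR).

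*Asns*, the asparagine synthetase, and *Trib3*, a pseudokinase that feeds back on ATF4, passed no test. *Asns* was at 5.47, 1.78 and 2.61 normalized CPM in WT, 11.4, 8.002, 3.28 and 3.49 in WT + TAM, 4.01 to 6.15 in *Mtm1* KO and 4.35 to 7.55 in *Mtm1* KO + TAM. Its wild type groups spread the widest, and all groups overlapped. The log2 fold change was 0.29 for genotype (interval -0.34 to 0.92) and 0.62 for tamoxifen (interval -0.03 to 1.26, adjusted p = 0.38, edgeR). *Trib3* lay between 0.554 and 3.79 CPM, with 0.45 for genotype (interval -0.28 to 1.17) and 0.36 for tamoxifen (interval -0.37 to 1.10). These intervals leave room for changes of more than 1.5-fold.

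The secreted factors had more counts in the knockout. *Gdf15*, a hormone that lowers appetite through a hindbrain receptor, had 4, 3 and 0 counts in WT, 4, 7, 9 and 5 in WT + TAM, 19, 23 and 19 in *Mtm1* KO and 16, 25, 6 and 13 in *Mtm1* KO + TAM. The untreated groups did not overlap, and the treated groups did. The edgeR values were 2.81 in *Mtm1* KO against WT (SE 0.74, adjusted p = 0.0388) and 1.57 in genotype over both treatments (SE 0.49, adjusted p = 0.0218). They depend on the prior count, and the gene entered these fits only through its knockout libraries, so they are given as a description. By counts relative to library totals, the genotypes differed by 0.449 CPM (exact permutation test within treatment, two-sided, unadjusted p = 0.00429, n = 7 and 7). There were 121 counts in all knockout and 32 in all wild type libraries. Library totals carry no TMM scaling, and with them 4637 of 5210 called genes in the genotype fit were higher in the knockout.

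*Fgf21*, a hormone of nutrient stress that muscle releases in mitochondrial disease, passed the count filter in none of the 7 fits. It had 9, 0 and 2 counts in WT, 1, 0, 0 and 0 in WT + TAM, 9, 10 and 18 in *Mtm1* KO and 10, 3, 5 and 7 in *Mtm1* KO + TAM. A WT library had the same 9 counts as the lowest *Mtm1* KO library, and the treated genotypes did not overlap. The difference was 0.257 CPM (exact permutation test within treatment, two-sided, unadjusted p = 0.00143, the smallest that 1400 permutations can give, n = 7 and 7), from 62 counts against 12. This test also used library totals without TMM, and it was not run on all genes. In the genotype fit of edgeR, 6809 of 15556 genes had an unadjusted p of at most 0.05. KO replicate 12, outside the main set, had 37 counts of *Fgf21* and 45 of *Gdf15*, the highest of all libraries for both, and the library labelled WT replicate 1 had 3 and 10.

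*Casp12*, a caspase of the ER membrane in rodents, was lower in the untreated knockout than in WT. It lies on the plus strand at chr9:5345430-5373032. Its level was 10.97, 14.56 and 11.04 normalized CPM in WT, 4.82, 5.31, 5.50 and 8.08 in WT + TAM, 4.71, 3.80 and 5.38 in *Mtm1* KO and 5.06, 5.68, 6.31 and 5.02 in *Mtm1* KO + TAM. The 3 WT libraries were above all others, and the other 3 groups overlapped. *Mtm1* KO against WT gave -1.37 (SE 0.20, 0.386-fold, adjusted p = 0.00448, edgeR). The call was lost with all 16 libraries (adjusted p = 0.0191, edgeR), where the library labelled WT replicate 1, with *Mtm1* at a knockout level, had 6.91 CPM and KO replicate 12 had 3.01. It was also lost when WT replicate 3 or 4 or KO replicate 9, 10 or 11 was left out (adjusted p = 0.0116 to 0.0164, edgeR), with values from -1.49 to -1.23.

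With tamoxifen the genotypes overlapped in *Casp12*. *Mtm1* KO + TAM against WT + TAM gave -0.10 (interval -0.52 to 0.32, adjusted p = 0.759, edgeR), and this value turned to 0.19 with library size scaling. WT + TAM against WT gave -1.04 (SE 0.21, adjusted p = 0.0647, edgeR), and *Mtm1* KO + TAM against *Mtm1* KO 0.24 (interval -0.18 to 0.66, adjusted p = 0.855). The interaction was 1.29 (SE 0.28, unadjusted p = 0.000305, adjusted p = 0.337, edgeR). The order of the means was WT (12.2 ± 2.05), WT + TAM (5.93 ± 1.46), *Mtm1* KO + TAM (5.52 ± 0.611) and *Mtm1* KO (4.63 ± 0.794), and of the neighbours only the first pair did not overlap. The plasma and B cell marker sum given above was also highest in WT and lower in the other 3 groups, and *Ighm* fell by 2.43 on the log2 scale in the genotype fit (adjusted p = 2.83e-06, edgeR). *Mzb1*, the other tested marker of the 5, was at 0.26 (adjusted p = 0.53). The macrophage sum (7 markers) was 138 to 155 CPM in WT, 72.7 to 160 in WT + TAM, 173 to 215 in *Mtm1* KO and 172 to 278 in *Mtm1* KO + TAM, and the fibroblast sum (5 markers) 4380 to 5120, 2580 to 4090, 3460 to 4780 and 3560 to 4130, with no marker at 0 in a group. The part of these cells in the *Casp12* values was not tested. The genes most like *Casp12* over the 14 libraries were *Fgfr1op* (Pearson r = 0.918), *Tiam1* (0.887) and *Sac3d1* (0.872).

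The wider pathway was described by 8 lists of 132 genes, all in the count table, of which 126 were tested in genotype over both treatments. Of these, 15 were higher in the knockout and 12 lower, together 21.4%, close to the 20.2% of all genes (9.44% higher and 10.7% lower). Their median was 0.03. With library size scaling 54 were higher and 2 lower, where 4637 of 5210 called genes were higher, so that the directions below are relative to the median of all genes. Of 24 ER chaperones and folding enzymes, 7 were higher (29.2%), 0 were lower and 17 did not pass, with a median of 0.25. *Ppib*, a prolyl isomerase, gave 0.59 (SE 0.11, adjusted p = 0.00053, edgeR), from 51.7 ± 3.85 normalized CPM in WT to 74.7 ± 12.7 in *Mtm1* KO (SD, n = 3 each). *Fkbp11*, another prolyl isomerase, gave 1.31 (SE 0.28), the disulfide isomerase *Pdia3* 0.65 (SE 0.14), the secreted ER protein *Manf* 0.85 (SE 0.20), the chaperone *Hsp90b1* 0.57 (SE 0.14) and *Sdf2l1* 0.95 (SE 0.25), and the gene after these by p was *Pdia4*.

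The count of chaperones depended on single libraries. It was 4 when WT replicate 4, WT + TAM replicate 5 or 6, KO replicate 10 or 11, or KO + TAM replicate 15 or 16 was left out, at most 8 in the other cases, 4 with all 16 libraries and 2 (*Ppib*, *Fkbp11*) without both KO + TAM 15 and 16. With library size scaling it was 16, all higher, where 33.5% of all genes were called. Over the 7 called genes, the median log2 ratio to the WT mean was 0.37, 0.80 and 0.57 in the *Mtm1* KO libraries and 0.65, 0.11, 0.67 and 0.96 in the *Mtm1* KO + TAM libraries. It ran from -0.71 to 0.13 in the WT + TAM libraries. In the same genotype fit, where 20.2% of all genes were called at 0.01, 2 of 7 macrophage markers (*Cd68* 1.52, *Ptprc* 0.89) were also higher. So were 3 of 5 fibroblast markers (*Lum* 0.55, *Dcn* 0.41, *Pdgfra* 0.40), while *Col1a1* (-0.19) and *Col3a1* (9.5e-05) did not pass. Of 7 muscle fiber markers 5 were lower, among them *Myh4* (-1.27) and *Ckm* (-0.89). The other fiber markers went the other way without passing 0.01, *Myh1* at 0.85 (adjusted p = 0.0153, edgeR) and *Mb* at 0.825 (adjusted p = 0.0837). The part of these cells in the chaperone values, and in those of the other lists, was not tested. KO + TAM replicate 14, which had the lowest *Hspa5* of its group, also had the lowest ratio of its group, and KO + TAM replicate 16 had the highest of both.

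**Figure D3:**
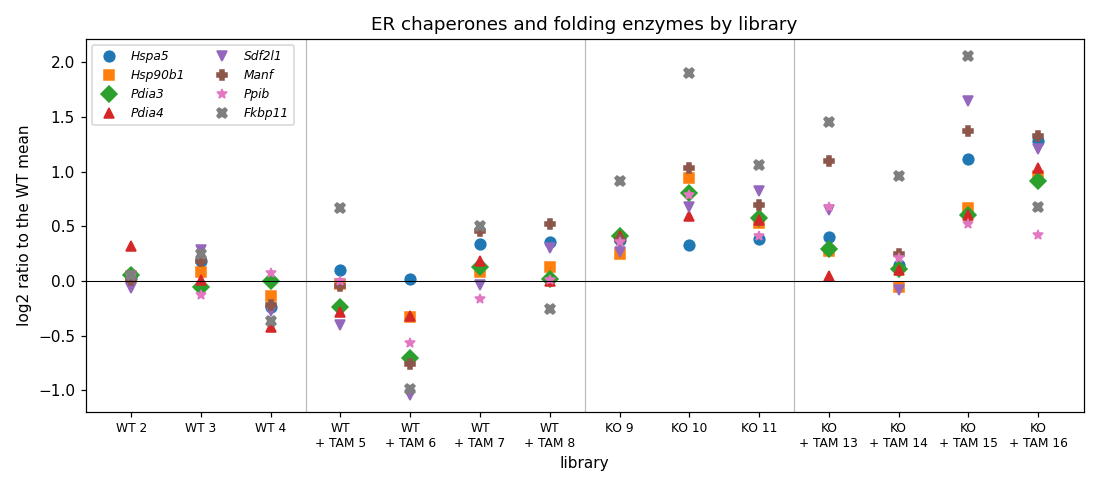
Log2 ratio of normalized CPM to the WT mean (y axis) in each of 14 libraries (x axis), for *Hspa5* and the 7 ER chaperones and folding enzymes called in genotype over both treatments. The 7 genes were chosen by this contrast, so the plot is a description. In the 3 *Mtm1* KO libraries all are above 0, while WT + TAM 6 holds the lowest median, -0.71.

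In ER-associated degradation, 4 of 18 genes were higher and 1 lower, together 27.8%, where 20.2% of all genes were called. *Ubxn4* gave 0.81 (SE 0.09, adjusted p = 1.02e-05, edgeR) and *Ube2g2*, a ubiquitin-conjugating enzyme, 0.65 (SE 0.09, adjusted p = 6.59e-05), and both were also called in *Mtm1* KO + TAM against WT + TAM. *Derl2* (0.36) and *Os9* (0.37) were the other higher genes. The count of 5 was 3 without WT replicate 3, WT + TAM replicate 6, KO replicate 10, or KO + TAM replicate 13 or 15, 3 with all 16 libraries, 2 without both KO + TAM 15 and 16, and 13 with library size scaling (33.5% of all genes). *Ubxn4* and *Ube2g2* were in every one of these.

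In the other branches of the pathway calls went in both directions, or down, with TMM scaling. Of all genes, 20.2% were called with TMM (9.44% higher and 10.7% lower) and 33.5% with library size scaling. With TMM, 10.7% of the ATF4 and CHOP targets, 30% of the synthetases and 40% of the mitochondrial genes were called. The share was 7.69% of the sensors and kinases and 20% of the receptor genes. Of 28 further ATF4 and CHOP targets, the stress-induced factor *Atf3* (1.34, SE 0.27) and the apoptosis gene *Bbc3* (0.83, SE 0.17) were higher, and *Gpt2*, the mitochondrial alanine aminotransferase, was lower (-1.79, SE 0.22, adjusted p = 1.98e-05, edgeR), whereas library size scaling called 11 higher and 1 lower. Of 20 cytosolic aminoacyl-tRNA synthetases, *Eprs* (0.40) and *Kars* (0.32) were higher and *Mars* (-0.49), *Iars* (-0.63), *Yars* (-0.40) and *Aars* (-0.28) lower, whereas library size scaling called 5 higher and 0 lower. Of 10 genes of the mitochondrial stress response, 4 were lower, the proteases *Lonp1* (-0.43) and *Oma1* (-0.41), the protease subunit *Clpx* (-0.46) and *Dele1* (-0.66), which carries mitochondrial stress to the eIF2 alpha kinase HRI. With library size scaling the one call was *Hspe1*, higher. Of 13 sensors and kinases, *Mbtps1*, the protease that cuts ATF6, was lower (-0.36, SE 0.08), a count that was 2 without WT replicate 4 or KO + TAM replicate 13, 0 with all 16 libraries and without KO + TAM 15 and 16, and 6 higher with library size scaling. Of 5 tested receptor genes of Fgf21 and Gdf15, *Ret* was lower (-1.03, SE 0.20, adjusted p = 0.000916, edgeR). Of 8 further caspases 0 passed in edgeR. There were 1 higher and 1 lower at 0.05, where 33.8% of all genes passed, and 2 at an unadjusted p of at most 0.05, where 6809 of 15556 did.

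**Figure D4:**
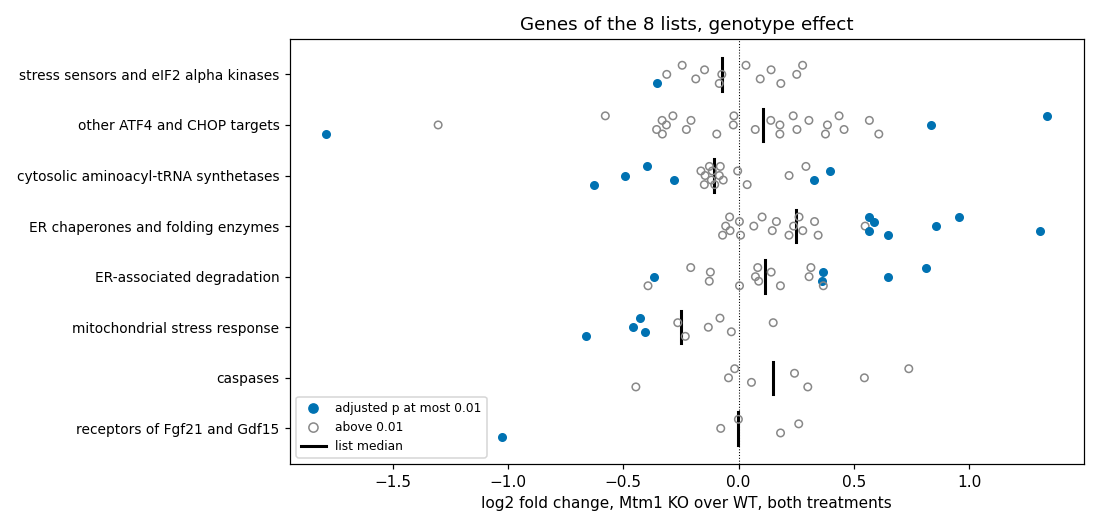
Log2 fold change of genotype over both treatments (x axis) for each tested gene of the 8 lists (y axis), with filled points at an adjusted p of at most 0.01 and a black bar at the list median. The chaperone list has the highest median, 0.25, and the mitochondrial list the lowest, -0.25.

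Tamoxifen over both genotypes called 0 of the 126 list genes, where 0.244% of all genes were called higher and 0.231% lower. Before adjustment 22 of the 126 had a p of at most 0.05 in edgeR, where 2194 of 15556 genes did, and DESeq2 called 4 (1.99% of all genes). At 0.05 edgeR called 2 higher and 1 lower, where 1.72% of all genes were called. The higher ones were *Eif4ebp1*, an inhibitor of translation initiation (0.78, SE 0.16, adjusted p = 0.0237, edgeR), and *Herpud1*, an ER degradation factor (0.40, SE 0.08, adjusted p = 0.0222). In the pairwise fits, *Mtm1* KO against WT called 2 of 125 list genes (1.6%, where 3.6% of all genes were called), *Gpt2* (-1.87, SE 0.30) and *Ret* (-1.38, SE 0.20). *Mtm1* KO + TAM against WT + TAM called 5 of 126 (3.97%, where 6.72% of all genes were called), *Ubxn4*, *Ube2g2*, *Gpt2*, *Mars* and *Dele1*. The first count was 0 or 1 without WT replicate 2, 3 or 4 or KO replicate 10 or 11 and 0 with all 16 libraries, and the second was 1 to 3 without WT + TAM replicate 7 or 8 or any 1 of the KO + TAM replicates. DESeq2 called 11 and 14 (11.4% and 13.7% of all genes), and the exact test 10 and 12 (9.85% and 12.5%). The comparisons WT + TAM against WT and, in the knockout, treated against untreated called 0 list genes at 0.01 in edgeR. At an unadjusted p of at most 0.05 there were 19 of 126 and 7 of 125, where 1549 of 14544 and 1137 of 15062 genes passed. DESeq2 called 2 (1.47% of all genes) and 0.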

How the data were processed

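RNA from whole quadriceps was analysed from 2 deposited tables of 41388 genes in 16 libraries. Per the authors, reads were aligned to GRCm38 with STAR in 2 steps and counted on genes with HTSeq, and the deposited raw counts carry no scaling. The submitters' processing notes name STAR 2.5.0c, bcl2fastq 2.17 and Cufflinks 2.2.1. The annotation, the counting mode and the strand setting were not given in the sources used here. The RPKM values were made by the authors from these counts. In 5467 genes checked, the ratio of counts to RPKM was proportional to the library total, to within a relative deviation of 0.000218. None of 120 pairs of libraries was identical.

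All genes of the 14 libraries that the study used were fitted with edgeR 4.0.16 (R 4.3.3), after TMM and filterByExpr (min.count 10, min.total.count 15). The quasi-likelihood test was adjusted by Benjamini-Hochberg over all tested genes, at 0.01 as in the study. Pairwise fits held the 2 groups compared. Genotype and tamoxifen effects came from an additive fit, and the interaction from a fit of 4 groups. SE is the absolute log2 fold change over the root of F, and intervals are 95%. Normalized CPM used TMM over 16 libraries. *Fgf21*, below the filter in every fit, and *Gdf15*, below it in some, were compared between genotypes by an exact permutation test. It used CPM from library totals, without TMM, and its p-values were not adjusted. As alternatives, DESeq2 1.42.0, the exact test of edgeR, limma 3.58.1 on log2(RPKM + 0.1) and log2(RPKM + 1), a threshold of 0.05, other scalings and filters, 1 fit of 4 groups, 16 libraries, and each library left out were run. The fits were tested on simulated data.

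The 10 genes, the 8 lists and the markers were chosen with earlier results of these data known. Named genes were the 10, up to 6 genes per list called in genotype over both treatments by lowest p, the 3 genes most like each called member by Pearson r of log2(CPM + 0.5), and *Mtm1*. *Pdia4*, *Hspe1*, *Eif4ebp1*, *Herpud1*, *Ighm*, *Mzb1*, *Cd68*, *Ptprc*, *Lum*, *Dcn*, *Pdgfra*, *Col1a1*, *Col3a1*, *Myh4*, *Ckm*, *Myh1* and *Mb* were named after their values were seen. Some list genes that were counted are not reported by name here. Positions and shared 50-base stretches came from GENCODE vM21 (GRCm38), and promoters from RefSeq (GRCm38.p6), which matched all 10 genes.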

Additional observations from a re-analysis of the deposited data

Results flagged for a closer look

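Of 20 groups of 4 libraries tested (10 genes in WT + TAM and *Mtm1* KO + TAM), 2 met Dixon's criterion for a library apart from the other 3, and chance flags about 1 in 20 groups of continuous values. *Asns* in KO + TAM replicate 14 was at 4.354 normalized CPM, where the other libraries of its group were at 7.014 to 7.548. *Fgf21* in WT + TAM replicate 5 was at 0.04303 normalized CPM, a single count, where the others of its group had 0. With the others at 0 any count meets the criterion, so this value does not show a library apart.

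KO replicate 12, which is outside the main set, stood above the 3 WT libraries of that set in 5 of the 10 genes. *Hspa5* was at 353.1 normalized CPM (WT 189.3 to 253.1), *Atf4* at 259.5 (WT 149.3 to 202.4), *Ddit3* at 13.56 (WT 5.967 to 11.6), *Fgf21* at 1.342 (WT 0 to 0.3323) and *Gdf15* at 1.632 (WT 0 to 0.1477). This is 1 library, and no test was made. The share of all genes in which it stood above these WT libraries was not computed, so the count is no result about the 10 genes.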

How the results depend on the processing

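No paired analysis was possible because the groups share no replicate numbers, which run from 1 to 16. The number of the 10 genes called at 0.01 changed as follows. The percentage after a setting is the share of all genes called with it. In *Mtm1* KO against WT (1) it was 2 with the exact test (9.85%), 3 with limma at either pseudocount (5.59% and 5.13%) and 2 at a threshold of 0.05 (12.8%). It was 2 with library size scaling (7.77%), 0 with 16 libraries (1.44%), and 0 to 1 with a library left out. In *Mtm1* KO + TAM against WT + TAM (0) the number was 1 with DESeq2 (13.7%), limma (11.6% and 11.1%) or library size scaling (12.9%), each time *Ddit3*. It was also 1 with the exact test (12.5%) or no filter (5.43%), each time *Chac1*, and 2 at 0.05 (17%). In WT + TAM against WT (0) it was 2 with DESeq2 (1.47%) or the exact test (1.22%), and 1 at 0.05 (0.55%) or with no filter (0.363%). In genotype over both treatments (0) it was 5 with DESeq2 (25.8%) or at 0.05 (33.8%), 3 with limma (33.3% and 33.1%) or library size scaling (33.5%), and 1 with no filter (12.7%). It was 2 with 16 libraries (14.3%), 1 without KO + TAM 15 and 16 (15.2%, added after seeing the data), and 0 to 2 with a library left out. In tamoxifen over both genotypes (1) it was 2 with DESeq2 (1.99%) and 0 to 1 with a library left out. The causes of these changes were not tested. In *Mtm1* KO against WT, *Gdf15* is among the genes called with the exact test, limma and at 0.05. In genotype it is among those of DESeq2, limma, library size scaling and 0.05, and the only gene called without KO + TAM 15 and 16. It passed the filter through its knockout libraries, so its calls are no support for a difference.

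Directions turned only for values below the threshold. With limma at 0.1, limma at 1 and library size scaling in turn, *Atf4* turned to 0.23, 0.23 and 0.23 (*Mtm1* KO against WT), 0.13, 0.13 and 0.14 (treated pair) and 0.17, 0.17 and 0.18 (genotype), *Xbp1* to 0.080, 0.078 and 0.091 (treated pair) and 0.23, 0.22 and 0.24 (genotype), and *Casp12* to 0.19, 0.12 and 0.19 (treated pair). RPKM is scaled by library totals too. With limma, *Trib3* turned to -0.12 and -0.00078 (WT + TAM against WT), the *Ddit3* interaction to -0.034 and -0.0040, and *Gdf15* to -0.019 (tamoxifen, pseudocount 1). With 16 libraries, *Ddit3* and *Trib3* turned to -0.050 and -0.18 (*Mtm1* KO against WT) and to -0.22 and -0.19 (WT + TAM against WT), and *Gdf15* to -0.37 (tamoxifen). In 1 fit of 4 groups, *Asns* was at -0.00022 (treated pair).

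With a library left out, values crossed 0 for *Atf4* in *Mtm1* KO against WT (-0.19 to 0.029), *Asns* (-0.22 to 0.41) and *Casp12* (-0.19 to 0.085) in the treated pair, *Chac1* in *Mtm1* KO + TAM against *Mtm1* KO (-0.61 to 0.17), *Trib3* in WT + TAM against WT (-0.61 to 0.40), *Gdf15* with tamoxifen (-0.048 to 0.44), and the interactions of *Atf4* (-0.15 to 0.070) and *Ddit3* (-0.22 to 0.26). The highest count of called genes with a library left out, 2 in genotype, includes *Fgf21* without WT replicate 2. It reached 10 counts in knockout libraries only and so passed the filter through them, and this call is no support for a difference. *Fgf21* and *Gdf15* had 0 to 25 counts in each of the 14 libraries, where fold changes are imprecise.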
